A study of Mus musculus with 24 samples.

Results

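Sham-treated salivary gland organoids of passage 2 were compared between glands taken 90 days and 14 days after the sham treatment. The members were chosen by the labels: 3 libraries at day 90 and 3 at day 14, all from C57BL/6 mice, all of passage 2 and none irradiated, out of 24 libraries in the series. The series as a whole set 14 against 90 days, passage 1 against passage 2, and irradiation (IR) against sham, with 3 libraries in each of 8 groups. Organoids are small epithelial cultures, here grown from salivary gland stem and progenitor cells in Matrigel with EGF, FGF2, insulin, the glucocorticoid dexamethasone and the ROCK inhibitor Y-27632, which every group received. The labels give neither the age nor the sex of the mice, and do not tell whether replicates came from different animals. The p-values therefore describe the scatter of libraries alone, and that scatter could be technical. In the edgeR tests it was estimated over all 24 libraries of the series. Day after treatment, age of the mouse and the date on which a culture or library was made cannot be told apart.

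Salivary duct epithelium holds a basal layer with keratins such as Krt5 and Krt14, and a luminal layer that lines the duct and secretes defence proteins. Cultures of its progenitors grow by division of basal-like cells, under signals that include growth factors, Notch, and the inflammatory NF-kappaB pathway. In culture, their transcripts also report on stress: p53 and the integrated stress response induce secreted factors, and nuclear noncoding RNAs such as Neat1 respond to altered RNA metabolism.

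The libraries held 2367849 to 3041066 counts on genes at day 90 and 1791976 to 2403073 at day 14. The difference in counts between the days had an exact permutation p of 0.2 (two-sided, n = 3 each). Gm42418, a predicted gene that overlaps a ribosomal RNA repeat, took 15.5%, 14.3% and 13.1% of gene counts at day 90 and 28.4%, 25.5% and 22.6% at day 14. The shares did not overlap: the means were 14.3 ± 1.19% at day 90 and 25.5 ± 2.90% at day 14 (SD, n = 3 each), and the exact permutation p was 0.1, two-sided, the smallest that 3 libraries against 3 can give. That the share separates these groups was known before the test, so this p adds no support. Day and this share cannot be told apart here. All 18 basal duct markers had counts in these libraries and summed to 7220 to 10550 CPM at day 90 and 10970 to 12690 CPM at day 14, where CPM are counts scaled to a common library size with TMM factors. The defining immune markers Ptprc, Cd3e and Adgre1 had no count, and the 7 of 19 immune markers with a count summed to 3.005 to 7.49 CPM at day 90 and 2.36 to 4.31 CPM at day 14. The endothelial markers Cdh5 and Tek and the fibroblast markers Pdgfrb and Col3a1 were also at 0, while the 7 of 12 fibroblast markers with a count summed to 55.7 to 870.9 CPM at day 90 and 294.4 to 834.5 CPM at day 14. Most of that sum was Postn, at 40.1, 852.1 and 308.3 CPM at day 90 and 190.4, 799.7 and 791.1 CPM at day 14. Vim had 15.3 to 36.8 CPM at day 90 and 18.1 to 103.4 CPM at day 14. Col1a1, Dcn, Lum, Pdgfra and Twist1 had at most 2 counts in a library. Xist stood at 434 to 545 CPM at day 90 and 456 to 529 CPM at day 14, and the Y-linked genes Kdm5d, Ddx3y and Eif2s3y had no count in any of the 6 libraries. The Y-linked gene Uty had 2, 1 and 3 counts in the day 90 libraries and 0 in each day 14 library.

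**Figure D1:**
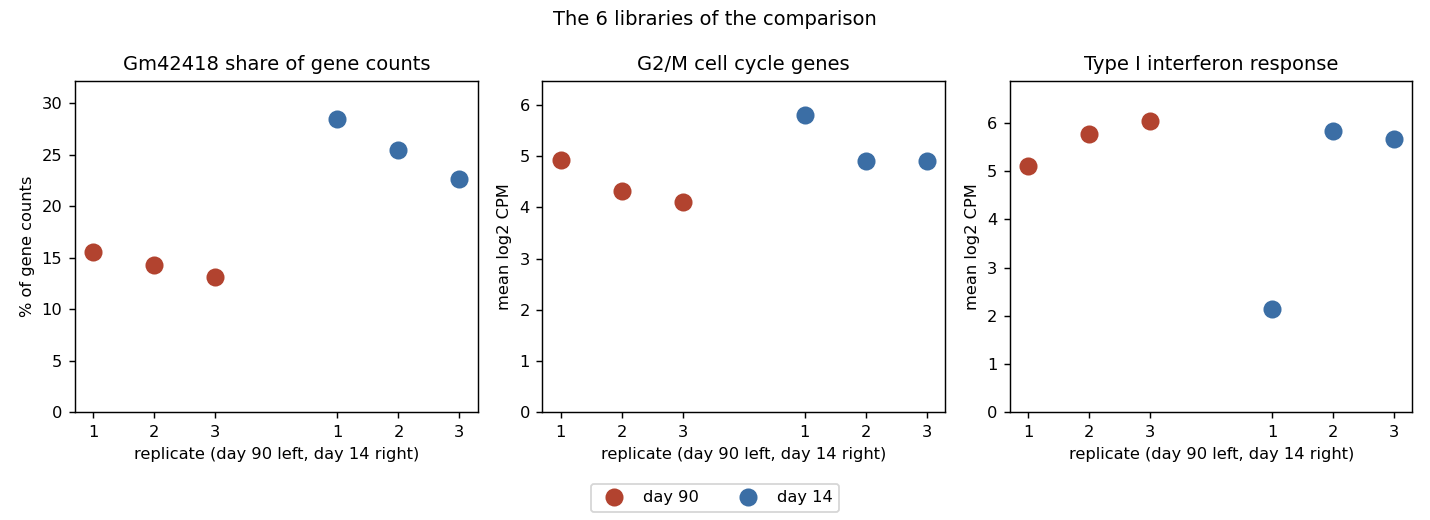
The share of gene counts on Gm42418 (left, %) and the mean log2 CPM of the G2/M and type I interferon lists (middle and right) in each of the 3 day 90 libraries and the 3 day 14 libraries, 1 point per library. The Gm42418 shares of the 2 days do not overlap, and day 14 replicate 1 has the highest G2/M mean, 5.80, and the lowest interferon mean, 2.14.

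Day 90 organoids held more RNA of several secreted and inflammatory genes (Ccl8, Saa1, Gdf15, Wfdc2), of the nuclear noncoding RNA Neat1 and of the mitochondrial iron importer gene Slc25a37. They held less RNA of the Notch target gene Hes1, the clock gene Per1, the mitochondrial gene mt-Co1 and a set of small structured RNAs. In all, 45 of 10563 tested genes (0.426%) were called at an adjusted p under 0.05, of which 26 were higher (0.246%) and 19 lower (0.18%) at day 90. At an unadjusted p under 0.05 there were 1448 genes (13.7%), of which 739 were higher (7%) and 709 lower (6.71%). Over all tested genes, 48.5% had a log2 fold change above 0 and 51.5% below. With library sizes taken as total counts, without TMM factors, 287 genes were called higher and 18 lower, and the median log2 fold change of all genes stood at 0.23 in place of −0.01. None of the 45 genes kept its call when the Gm42418 share was added to the model as a covariate, which left 1 call, Ltf, the iron-binding protein lactoferrin (2.54, edgeR adjusted p = 0.0244). The signs of the 45 genes stayed, and with the covariate the log2 fold change was 3.85 for Ccl8, 2.56 for Gdf15, 1.09 for Slc25a37, −1.75 for Hes1 and 4.83 for Saa1, with adjusted p of 0.0555 to 0.165 for these 5 genes. Calls without 1 of the 6 libraries numbered from 3, without day 14 replicate 3, to 47, without day 90 replicate 1. Slc25a37 and the small RNAs Gm23924 and Gm23262 kept their calls without each of the 6 libraries in turn, and Ccl8 and Gdf15 lost theirs only without day 14 replicate 3. Hes1 and Per1 lost their calls without any one of the 6.

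**Figure D2:**
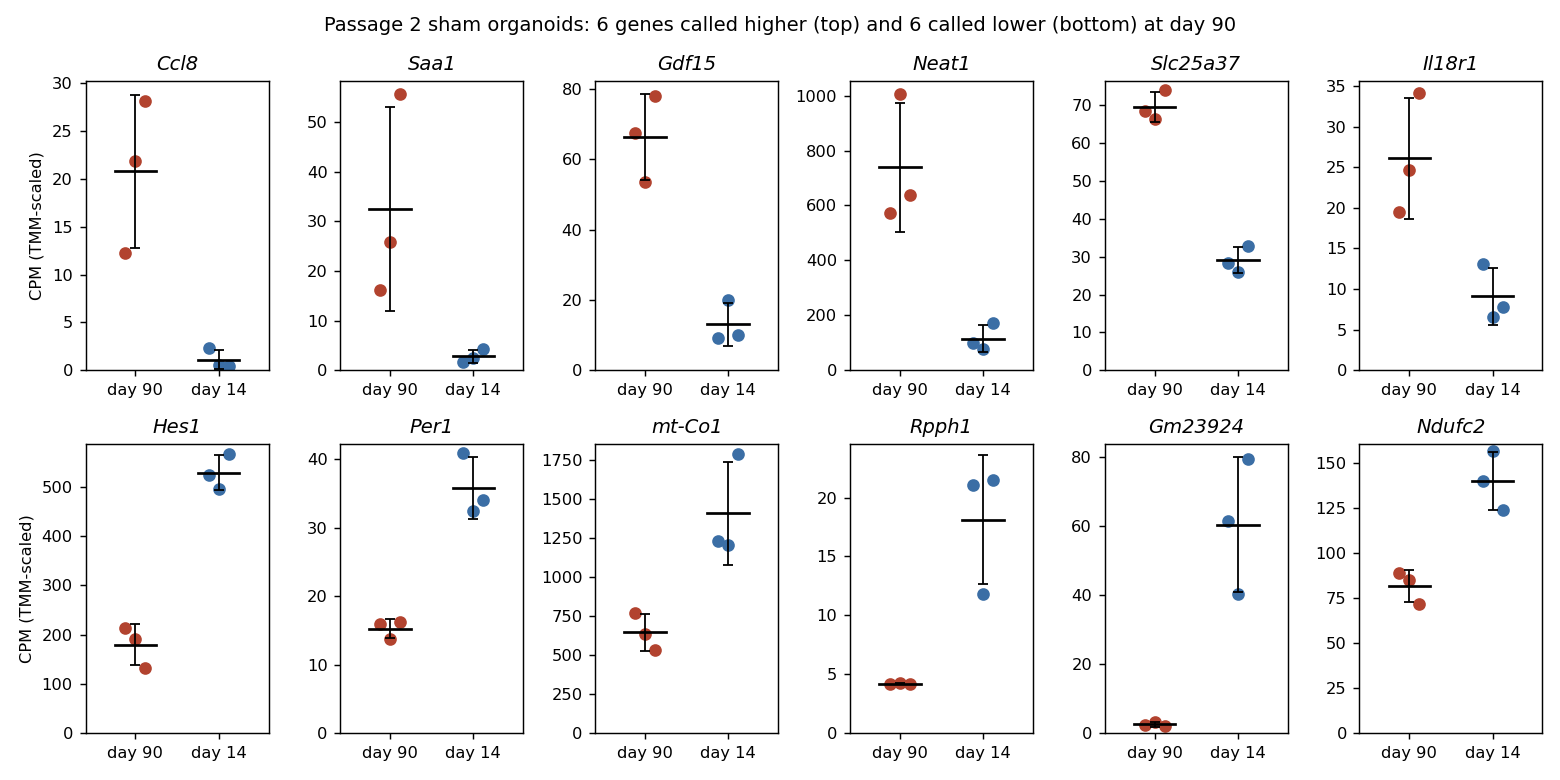
CPM of 12 called genes in each library, with the mean (line) and SD (bars) of 3 libraries, for day 90 on the left and day 14 on the right of each panel. In the 12 panels no day 90 library overlaps a day 14 library.

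Among secreted ligands, Ccl8, a chemokine that attracts monocytes, had 12.3, 21.9 and 28.2 CPM at day 90, against 2.27, 0.591 and 0.431 CPM at day 14. Its log2 fold change was 4.23 (SE 0.63, edgeR adjusted p = 0.00270), on 188 counts at day 90 and 6 counts at day 14. Every day 90 library stood above every day 14 library. In the other groups of the series Ccl8 averaged 0.344 to 5.52 CPM. It thus passed the filter on low counts largely through these day 90 libraries, which favours a higher call. Saa1, an acute phase apolipoprotein, had 16.2, 25.8 and 55.6 CPM at day 90, against 1.71, 2.36 and 4.31 CPM at day 14 (log2 fold change 3.45, SE 0.77, edgeR adjusted p = 0.0465). The groups did not overlap, but the day 90 libraries spread widely. Gdf15, a stress-induced cytokine of the TGF-beta superfamily and a p53 target, had 67.4, 53.5 and 78.1 CPM at day 90, against 9.09, 20.1 and 9.91 CPM at day 14. Its log2 fold change was 2.36 (SE 0.36, edgeR adjusted p = 0.00271), again with no overlap. Wfdc2, a secreted ductal protein of the protease inhibitor class, averaged 711.7 ± 84.4 CPM at day 90 and 362.5 ± 78.1 CPM at day 14 (SD, n = 3 each; log2 fold change 0.97, SE 0.20, edgeR adjusted p = 0.0296). Sema3f, a secreted guidance ligand, stood at 29.1, 29.2 and 34.6 CPM at day 90, against 13.6, 11.8 and 10.3 CPM at day 14 (log2 fold change 1.38, SE 0.23).

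Genes for 2 proteins of inflammatory signalling were higher as well. Il18r1, the ligand-binding chain of the interleukin-18 receptor, had 19.5, 24.6 and 34.2 CPM at day 90, against 13.1, 6.50 and 7.75 CPM at day 14 (log2 fold change 1.51, SE 0.32, edgeR adjusted p = 0.0336). Bcl3, a nuclear IkappaB protein that partners NF-kappaB dimers, had 59.6, 78.1 and 102.9 CPM at day 90, against 26.2, 30.1 and 33.2 CPM at day 14 (log2 fold change 1.42, SE 0.27, edgeR adjusted p = 0.0250). Of the 19 tested NF-kappaB and acute phase genes, Saa1 was the 1 called (0.426% of all tested genes were). In that list 5 stood higher with no overlap (26.3%, against 11.1% of all tested genes) and 2 lower with no overlap (10.5%, against 11.3%). The list's median log2 fold change was 0.50, against −0.01 for all tested genes. Its median was 0.21 without day 14 replicate 1, 0.24 without day 90 replicate 1, 0.27 without day 90 replicate 2, and 0.33 without day 14 replicate 2, and with only the compared groups fitted it was 0.03 over 17 genes. In the full list 11 genes were above 0 and 8 below. Hp, haptoglobin, averaged 499.8 CPM at day 90 and 155.9 CPM at day 14 (1.68, edgeR adjusted p = 0.248). C3, the complement component, averaged 59.2 CPM at day 90 and 22.4 CPM at day 14 (1.39, adjusted p = 0.160). The NF-kappaB inhibitor gene Nfkbia had a log2 fold change of −0.30 and Tnfaip3 of −0.69, and the cytokine gene Tnf stood at −1.47 (adjusted p = 0.308).

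The 3 acute phase serum amyloid genes lie near each other on chromosome 7, and Saa1 and Saa2 are close paralogs whose reads may have been shared. Saa3 averaged 17.1 CPM at day 90 and 4.46 CPM at day 14 (log2 fold change 1.87, edgeR adjusted p = 0.315), and Saa2 averaged 2.76 CPM at day 90 and 0.530 CPM at day 14 (2.24, adjusted p = 0.451), in both without overlap. The 250 bases before the start of Saa1 and Saa3 are printed because these 2 members of the family had the higher levels. They are from RefSeq on GRCm38.p6, 5′ to 3′ on the gene's strand, with matches to TTGCNNAA, a motif of the C/EBP factors of the acute phase response, in capitals:
Saa1, chr7:46742981-46743230, minus strand: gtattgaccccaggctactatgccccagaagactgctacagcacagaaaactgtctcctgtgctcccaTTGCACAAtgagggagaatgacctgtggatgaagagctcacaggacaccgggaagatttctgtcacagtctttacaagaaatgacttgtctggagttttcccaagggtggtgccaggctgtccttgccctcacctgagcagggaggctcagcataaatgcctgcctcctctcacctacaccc
Saa3, chr7:46715677-46715926, minus strand: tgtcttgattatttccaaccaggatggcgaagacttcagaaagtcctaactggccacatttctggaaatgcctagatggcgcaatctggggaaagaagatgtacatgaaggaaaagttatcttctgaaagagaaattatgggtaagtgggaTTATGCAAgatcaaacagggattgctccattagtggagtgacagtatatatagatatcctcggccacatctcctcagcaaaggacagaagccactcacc
The match began 182 bases before the start of Saa1 and 99 bases before that of Saa3. On either strand, this motif is in 9.56% of 32851 such windows and in 3 of the 24 windows of genes called higher (12.5%). A motif of NF-kappaB is in 17.6% of all windows, in 1 of the 24 windows of genes called higher (4.17%) and in 0 of the 7 of genes called lower.

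Nuclear noncoding RNAs were among the larger differences. Neat1, the scaffold RNA of paraspeckles, had 570.9, 1006 and 638.8 CPM at day 90, against 98.9, 76.2 and 171 CPM at day 14 (log2 fold change 2.67, SE 0.56, edgeR adjusted p = 0.0336). Its lowest day 90 library lay well above its highest day 14 library. Malat1, the abundant RNA of nuclear speckles, had 10870, 11590 and 7529 CPM at day 90, against 3551, 2107 and 3697 CPM at day 14, and did not pass (1.68, SE 0.39, adjusted p = 0.0529). Snhg20, a long noncoding RNA that hosts a small nucleolar RNA, had 11.7, 16.7 and 25.2 CPM at day 90, against 5.68, 0.591 and 4.31 CPM at day 14 (2.28, SE 0.42, edgeR adjusted p = 0.0175). Of 59 tested lincRNA genes, Neat1, Snhg20 and the predicted gene Gm26532 were called higher (against 0.246% of all tested genes) and 0 lower, and 42 had a log2 fold change above 0 (against 48.5%). Mir5136, annotated as a miRNA gene, averaged 22.4 ± 0.655 CPM at day 90 and 6.73 ± 0.755 CPM at day 14 (SD, n = 3 each; 1.72, SE 0.34). Those are reads at its locus in libraries primed at the poly(A) tail, and no mature miRNA was measured.

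Small structured RNAs formed a large part of the genes called lower: 6 snRNA genes, the snoRNA genes Gm23262 and Snora30, and Rpph1. Of 1383 annotated snRNA genes 21 passed the filter on low counts, of which 6 were called lower and 0 higher (0.18% and 0.246% of all tested genes were). Gm22306, Gm25039, Gm22805 and Gm26435 averaged 0.0999 to 0.881 CPM at day 90 and 5.57 to 8.36 CPM at day 14. Such genes passed the filter through the day 14 libraries, which favours a lower call, so the count is a description. The 6 called genes resemble Rnu6, the U6 RNA at the catalytic centre of the spliceosome. Their GENCODE transcripts are 107 or 108 bases long, 89.7% to 99.1% identical to Rnu6 and 81.8% to 98.1% identical to each other. The copies are so alike that the counting may have shared or split their reads. Gm23924 had 2.40, 3.04 and 1.88 CPM at day 90, against 61.4, 40.2 and 79.2 CPM at day 14. Its log2 fold change was −4.59 (SE 0.59, edgeR adjusted p = 0.000839), on 23 counts at day 90 and 360 at day 14. The levels at the 2 days lay far apart in every library. Gm22805 had 1 count over the 3 day 90 libraries and 33 over the 3 day 14 libraries, so its fitted fold rests on that 1 count. The other 4 called copies, Gm22306, Gm25039, Gm25328 and Gm26435, had log2 fold changes of −2.80 to −3.39 on 7 to 17 counts at day 90 and 37 to 79 at day 14.

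Among the 21 tested snRNA genes, likeness to U6 and level were read after the values were seen and without a test. Gm22063, 99.1% identical to Rnu6, was a close copy above 0, at 7.79, 22.2 and 19.9 CPM at day 90 and 10.8, 11.2 and 13.4 CPM at day 14 (0.48, adjusted p = 0.672). Gm23792 is a shorter copy of 93 bases (78.5% identical, −4.04, adjusted p = 0.0543). Rnu12 and Rnu11, RNAs of the minor spliceosome, had log2 fold changes of 1.29 (adjusted p = 0.326) and 0.94 (adjusted p = 0.525). Other RNAs made by RNA polymerase III also had log2 fold changes below 0, and 1 of the 3 named here was called. Rpph1, the RNA of ribonuclease P, had 4.19, 4.26 and 4.13 CPM at day 90, against 21.03, 11.8 and 21.5 CPM at day 14 (−2.11, SE 0.35, edgeR adjusted p = 0.00696). Rmrp, the RNA of the related enzyme RNase MRP, averaged 2.14 CPM at day 90 and 9.76 CPM at day 14 (−2.18, adjusted p = 0.0641), and Rn7sk, which restrains transcription elongation, averaged 54.4 CPM at day 90 and 119 CPM at day 14 (−1.13, adjusted p = 0.297). Among 20 tested snoRNA genes, which guide RNA modification, Gm23262 had 2.10, 0.608 and 1.13 CPM at day 90, against 11.9, 13.0 and 19.4 CPM at day 14 (−3.47, SE 0.50, edgeR adjusted p = 0.00176). Snora30 had 4.79, 5.17 and 3.38 CPM at day 90, against 18.8, 11.2 and 22.8 CPM at day 14 (−1.97, edgeR adjusted p = 0.0490). They were the 2 called snoRNA genes, both lower with no overlap between the days (0.18% of all tested genes were called lower). Outside the day 14 groups of passage 2, Gm23262 averaged 0.392 to 3.84 CPM. It thus passed the filter on low counts largely through day 14 libraries, which favours a lower call, so the count is a description. Small RNAs of these kinds lack a poly(A) tail in the textbook account, and the Gm42418 share was also lower in every day 90 library. With that share as a covariate the log2 fold change was −3.46 for Gm23924, −2.78 for Gm23262, −1.89 for Rpph1 and −1.89 for Snora30. None of these 4 kept its call, at edgeR adjusted p of 0.0884 to 0.333. The part of the tail was not tested, and the share cannot be told apart from day.

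**Figure D3:**
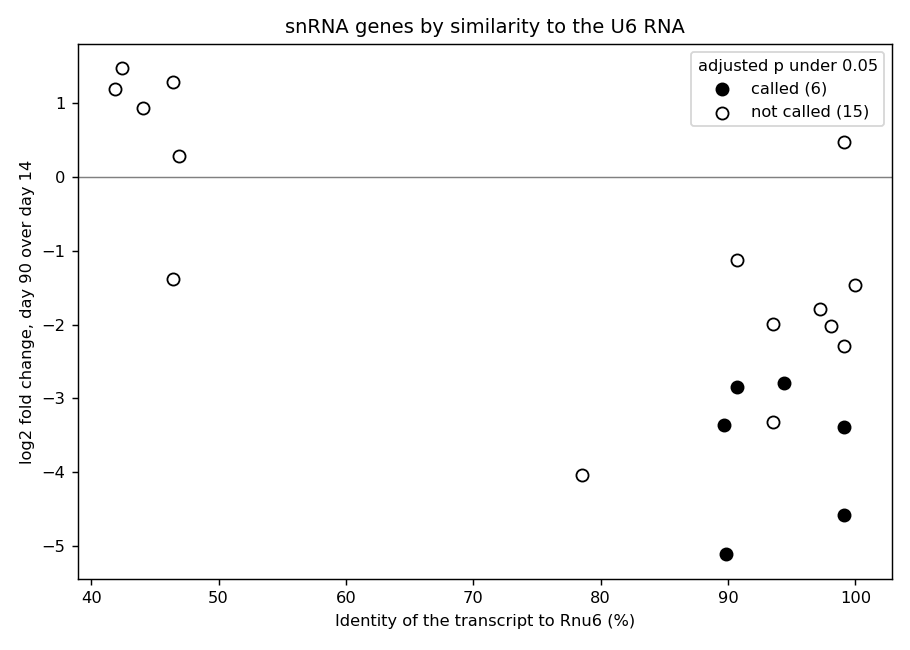
Log2 fold change of day 90 over day 14 for the 21 tested snRNA genes against the identity of their transcript to Rnu6 (%), with called genes filled. The 6 called genes lie at 89.7% identity or more and below −2.7, and Gm22063 is the one copy over 80% identical above 0. Copies low at day 90 are plotted only because they passed the filter through other groups.

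Among intracellular regulators and enzymes, Slc25a37 (mitoferrin, which carries iron into mitochondria) had the smallest adjusted p of the genes called higher. It stood at 68.6, 66.3 and 74.0 CPM at day 90, against 28.4, 25.99 and 32.7 CPM at day 14 (log2 fold change 1.25, SE 0.17, edgeR adjusted p = 0.000839). Within each day the 3 libraries were close together. Fbxl5, the iron-sensing subunit of a ubiquitin ligase that degrades an iron regulatory protein, averaged 105.3 ± 7.10 CPM at day 90 and 61.2 ± 9.05 CPM at day 14 (SD, n = 3 each; 0.78, SE 0.17, edgeR adjusted p = 0.0358). Ogt, the enzyme that attaches O-GlcNAc to proteins, had 57.2, 77.2 and 67.2 CPM at day 90, against 21.03, 20.7 and 26.3 CPM at day 14 (1.56, SE 0.28, edgeR adjusted p = 0.0171). B4galt1, a galactosyltransferase of the Golgi, averaged 288.3 CPM at day 90 and 142.6 CPM at day 14 (1.01, edgeR adjusted p = 0.0296). Smaller called differences were those of Tnks2, a tankyrase (0.78), Zfp217, a zinc finger factor (0.72), and Cd99l2, an adhesion protein (0.68). The RNA-binding proteins Rbpms2 (1.38, SE 0.29) and Igf2bp2 (0.90, SE 0.19) and the membrane protein Mmgt2 (1.63, SE 0.28) were called too. Further genes called higher were Shkbp1, Tmem185b, Aasdh and 2900052L18Rik, at 1.11 to 2.17.

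Hes1, a transcriptional repressor induced by Notch, had 214.2, 190.3 and 132.6 CPM at day 90, against 525.2, 496.7 and 566.3 CPM at day 14 (log2 fold change −1.56, SE 0.34, edgeR adjusted p = 0.0368). Every day 90 library was below every day 14 library by a wide margin, although the call was lost with total counts as library sizes. Of 12 tested Notch genes, 6 stood lower with no overlap (50%, against 11.3% of all tested genes) and 0 higher. Hes1 was the 1 called (0.426% of all tested genes were), and the list's median was −0.33. The 6 held 3 receptor genes: Notch2 averaged 12.3 CPM at day 90 and 26.2 CPM at day 14 (−1.08, adjusted p = 0.171), Notch3 averaged 29.6 and 39.6 CPM at day 90 and day 14 (−0.42, adjusted p = 0.239), and Notch1 averaged 224.3 and 264.2 CPM at day 90 and day 14 (−0.24, adjusted p = 0.633). They also held the ligand gene Jag1 (−0.46, adjusted p = 0.362) and the coactivator gene Maml2 (−0.49, adjusted p = 0.371). The target gene Hey1 had 6.59, 9.42 and 7.89 CPM at day 90, against 7.96, 31.3 and 24.98 CPM at day 14 (−1.42, adjusted p = 0.150), so its groups overlapped through day 14 replicate 1. The ligand gene Dll1 and the feedback gene Nrarp were above 0, at 0.31 and 0.45. With total counts as library sizes, which raised the median of all genes to 0.23, the list's median was −0.08, with 6 of the 12 below 0 and 6 above. Efnb2, an ephrin ligand of cell boundaries, was lower as well, at 64.7, 88.5 and 115.7 CPM at day 90 and 140.4, 171.3 and 173.1 CPM at day 14 (−0.85, SE 0.18, edgeR adjusted p = 0.0358).

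Per1, a repressor of the circadian clock that glucocorticoids induce, had 15.9, 13.7 and 16.2 CPM at day 90, against 40.9, 32.5 and 34.02 CPM at day 14 (log2 fold change −1.23, SE 0.25, edgeR adjusted p = 0.0296). Of 15 tested clock genes 11 were below 0 and 4 above, and the median was −0.25. In that list 3 stood lower with no overlap (20%, against 11.3% of all tested genes) and 1 higher (6.67%, against 11.1%). The median of 17 tested glucocorticoid response genes was 0.09. Per1 was the 1 called of the clock list and of the glucocorticoid list (0.426% of all tested genes were called). Its partner Per2 had 5.69, 6.69 and 3.005 CPM at day 90, against 9.09, 14.2 and 15.5 CPM at day 14 (−1.31, adjusted p = 0.149), without overlap. Arntl (−0.33) and Clock (−0.13), which activate both genes, did not pass, and Hlf, an output factor of the clock, stood at 1.77 (adjusted p = 0.262). The labels do not state the hour of harvest. The RefSeq window before 1 of the starts of Per1 is printed because the clock acts on Per genes through the E-box, CACGTG, here in capitals 166 bases before the start (GRCm38.p6, 5′ to 3′ on the gene's strand):
Per1, chr11:69098699-69098948, plus strand: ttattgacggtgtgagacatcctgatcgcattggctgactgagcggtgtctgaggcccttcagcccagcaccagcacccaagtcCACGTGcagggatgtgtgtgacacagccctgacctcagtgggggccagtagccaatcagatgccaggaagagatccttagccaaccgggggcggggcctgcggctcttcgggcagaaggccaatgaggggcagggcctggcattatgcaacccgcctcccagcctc
The E-box is in 6.02% of all 32851 windows and in 2 of the 7 windows of genes called lower (28.6%), the other being that of Mbnl1, a splicing regulator (−0.76, SE 0.16, edgeR adjusted p = 0.0369). Pnrc1, a coregulator of nuclear receptors, averaged 90.7 ± 6.60 CPM at day 90 and 185.9 ± 22.8 CPM at day 14 (SD, n = 3 each; −1.03, SE 0.17, edgeR adjusted p = 0.00696).

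Genes of respiration and ribosomes stood slightly lower at day 90 as lists. mt-Co1, the mitochondrially encoded catalytic subunit of complex IV, had 767.4, 637.4 and 529.2 CPM at day 90, against 1231, 1207 and 1793 CPM at day 14 (log2 fold change −1.13, SE 0.23, edgeR adjusted p = 0.0296). Other genes of the mitochondrial genome had log2 fold changes of either sign and were not called. mt-Cytb of complex III was at −0.68 (adjusted p = 0.280), while the complex I genes mt-Nd2 (0.55, adjusted p = 0.392) and mt-Nd4 (0.53, adjusted p = 0.491) stood above 0, all 3 without overlap. Ndufc2, a nuclear-encoded subunit of complex I, averaged 81.8 ± 8.99 CPM at day 90 and 140.1 ± 16.3 CPM at day 14 (SD, n = 3 each; −0.77, SE 0.17, edgeR adjusted p = 0.0465). It was the 1 called (0.426% of all tested genes were) of 72 tested nuclear genes of oxidative phosphorylation. Of these, 35 stood lower with no overlap (48.6%, against 11.3%) and 0 higher, 61 were below 0 (against 51.5% of all tested genes), and the median was −0.32. The mean log2 CPM of this list was 6.04, 5.92 and 5.89 at day 90 and 6.26, 6.24 and 6.26 at day 14. Next in order of p, and not called, were Cox5b of complex IV (−0.57, adjusted p = 0.0837), Ndufb9 of complex I (−0.52, adjusted p = 0.110), Cox7b of complex IV (−0.71, adjusted p = 0.113) and Atp5b of ATP synthase (−0.80, adjusted p = 0.116). Of 81 cytosolic ribosomal protein genes, 24 stood lower with no overlap (29.6%) and 1 higher, 0 were called, and the median was −0.24, but with total counts as library sizes the median was 0.0041, with 41 above 0 and 40 below. With that scaling the oxidative phosphorylation list had 45 of 72 below 0 and a median of −0.08, while the median of all genes stood at 0.23. Lsm4, part of the ring of LSM proteins that binds the end of U6 RNA, had 33.3, 32.8 and 34.2 CPM at day 90, against 62.0, 50.2 and 57.3 CPM at day 14 (−0.76, SE 0.17, edgeR adjusted p = 0.0465).

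Cell cycle genes stood lower at day 90 with 0 called. Of 42 G2/M genes, which act in chromosome segregation and division, 41 were below 0, 13 were lower with no overlap (31.0%, against 11.3%) and 0 higher, and the median was −0.75. Of 30 G1/S genes of DNA replication, 29 were below 0, 11 were lower with no overlap (36.7%) and the median was −0.52. At an unadjusted p under 0.05, 13 of the G2/M and 7 of the G1/S genes were lower (6.71% of all tested genes were). Mki67, the proliferation marker, had 72.2, 51.1 and 34.2 CPM at day 90, against 191, 91.0 and 77.5 CPM at day 14 (−1.18, SE 0.57, adjusted p = 0.360). Cdc20, an activator of the anaphase-promoting complex, had 16.5, 7.30 and 5.26 CPM at day 90, against 55.7, 18.3 and 21.96 CPM at day 14 (−1.69, adjusted p = 0.173). Day 14 replicate 1 was the highest library for both genes. Without it 37 of the 42 G2/M genes were below 0, with a median of −0.43, and 25 of the 30 G1/S genes, with a median of −0.30. The replication genes Pcna (−0.73, adjusted p = 0.135) and Mcm6 (−1.16, adjusted p = 0.142) had no overlap and did not pass. Cdkn1a, the p53 target that blocks the cell cycle, had 491.5, 399.1 and 519 CPM at day 90, against 367.2, 284.1 and 251.9 CPM at day 14 (0.64, SE 0.26, adjusted p = 0.279). Of 26 p53 targets, Gdf15 was the 1 called (0.426% of all tested genes were) and the median was 0.02. In bulk libraries, fewer dividing cells and less RNA per cell cannot be told apart.

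**Figure D4:**
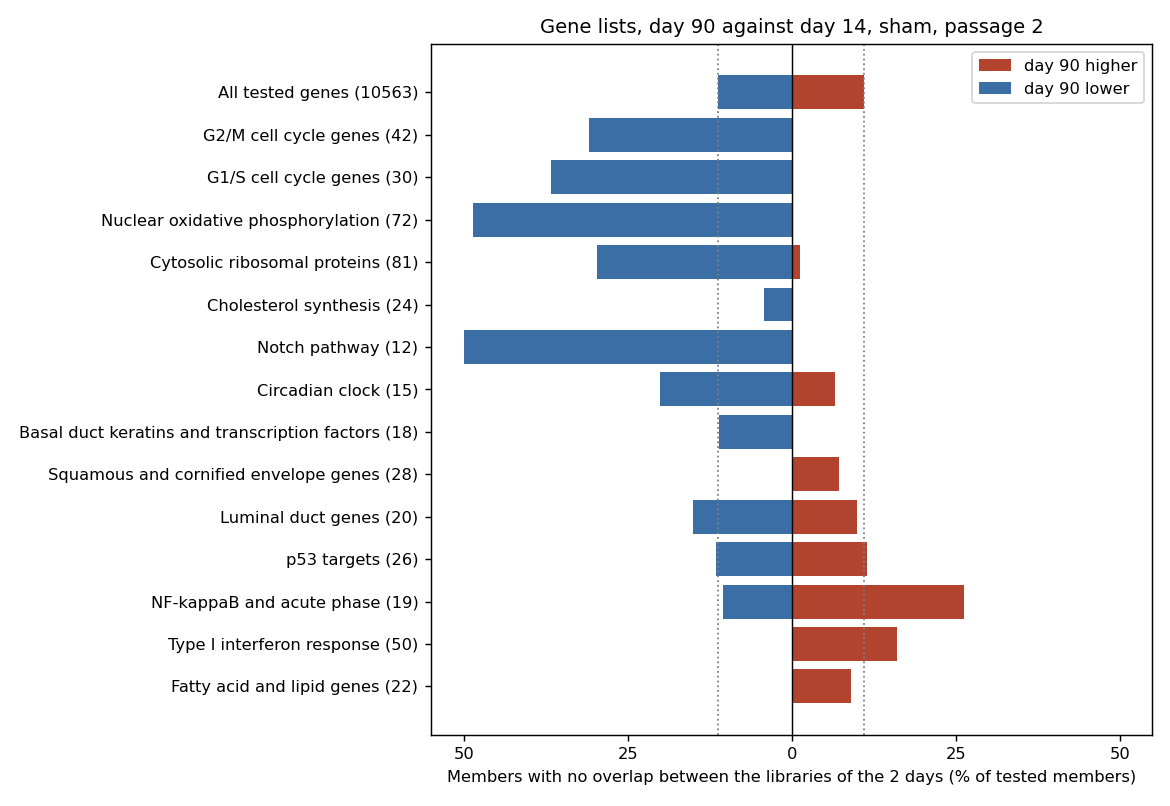
Percent of tested members of each list whose 3 day 90 libraries all lie above (right) or below (left) all 3 day 14 libraries, with the number tested in brackets and dotted lines at the values of all tested genes (11.1% higher and 11.3% lower). The nuclear oxidative phosphorylation, Notch, cell cycle and ribosomal protein lists have 29.6% to 50% of members lower, although with total counts as library sizes the ribosomal protein list has 41 members above 0 and 40 below, and the Notch list 6 and 6, while the median of all genes is 0.23 there.

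Markers of cell identity did not pass, other than Wfdc2 among 20 tested luminal duct genes, whose median was −0.12 (0.426% of all tested genes were called). The basal keratins stood lower on average: Krt14 averaged 3364 ± 683.6 CPM at day 90 and 4890 ± 404.6 CPM at day 14 (SD, n = 3 each; −0.54, adjusted p = 0.483), and Krt5 averaged 2360 ± 860.4 CPM at day 90 and 2981 ± 346.3 CPM at day 14 (−0.34, adjusted p = 0.774). The luminal keratin Krt8 stood at −0.14 (adjusted p = 0.828), and Aqp5, a water channel of acinar cells, at 0.59 (adjusted p = 0.557). Krt19, a ductal keratin, had 32.7, 1.52 and 0.751 CPM at day 90, against 5.12, 7.09 and 4.74 CPM at day 14 (1.08, adjusted p = 0.580). Day 90 replicate 1 alone carried the positive sign of Krt19, which was −2.18 without it. Aldh1a3, a retinaldehyde dehydrogenase of progenitors, had 51.2, 79.6 and 92.8 CPM at day 90, against 53.4, 34.9 and 29.3 CPM at day 14 (0.93, adjusted p = 0.230). Fn1, fibronectin, had 37.1, 121.3 and 89.4 CPM at day 90, against 137, 87.4 and 57.3 CPM at day 14 (−0.18, adjusted p = 0.908).

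Bmp4, the ligand in the title of the series, was near the limit of these libraries, at 2.10, 0.608 and 0.376 CPM at day 90 and 1.14, 0 and 0.861 CPM at day 14 (log2 fold change 0.59, SE 0.83, adjusted p = 0.803). Of its target genes, Id1, an inhibitor of helix-loop-helix factors, had 60.5, 15.5 and 25.2 CPM at day 90, against 10.8, 10.6 and 12.9 CPM at day 14 (1.55, SE 0.54, adjusted p = 0.195). Id3 had 81.8, 15.2 and 12.4 CPM at day 90, against 34.7, 24.2 and 26.7 CPM at day 14 (0.37, SE 0.56, adjusted p = 0.822). Day 90 replicate 1 was the highest library for all 3 genes, and without it Bmp4 stood at −0.39 and Id3 at −1.01. Of 50 tested interferon response genes 41 were above 0, with 0 called and a median of 0.45. The mean log2 CPM of that list was 5.11, 5.78 and 6.05 at day 90 and 2.14, 5.84 and 5.67 at day 14, and without day 14 replicate 1 the median was −0.04, with 23 above 0 and 27 below. With the Gm42418 share as a covariate it was −0.99, with 4 above 0 and 46 below.

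The day difference was set beside that in libraries that share none with it. In IR organoids of passage 2, 46 genes were called for day 90 against day 14 (0.435%), 21 higher (0.199%) and 25 lower (0.237%). Of the 45 genes called in sham, 42 had the same sign there (64.6% of all tested genes did) and 10 were called in both, 22.2% of the 45 and 21.7% of the 46. These were Gdf15, Il18r1, mt-Co1, Rpph1, Gm17494, and the small RNA genes Gm23924, Gm22306, Gm25039, Gm25328 and Gm23262. These small RNA genes passed the filter on low counts through day 14 libraries. That favours a lower sign in both passage 2 comparisons, so their agreement is a description. Mean Gm42418 was also lower at day 90 in IR organoids of passage 2 (199500 CPM, against 252400 CPM at day 14), with overlap. Its mean in passage 1 sham organoids was 179900 CPM at day 90 and 267500 CPM at day 14, also with overlap. In sham organoids of passage 1, 0 genes were called by edgeR (1025 at an unadjusted p under 0.05, 9.70%), and 40 of the 45 had the same sign (61.8% of all tested genes did). Gm23924 had 3.38, 1.76 and 1.81 CPM at day 90 and 29.0, 15.7 and 10.8 CPM at day 14 in passage 1. Hes1 had 189, 205.6 and 227.4 CPM at day 90 and 293.7, 572.6 and 735.6 CPM at day 14 in passage 1, with no overlap but no call (−1.36, adjusted p = 0.124). Neat1 stood at 0.08 in passage 1 sham and 0.26 in passage 2 IR organoids. Tested directly, 0 genes differed by edgeR in their day effect between passage 2 and passage 1 of sham organoids, with 479 at an unadjusted p under 0.05 (4.53%) and 1 by DESeq2, the mitochondrial tRNA gene mt-Tq. The edgeR differences of smallest p were positive for Sema3f (1.32), Gdf15 (1.92), Malat1 (2.06) and Gm37238 (2.63). They were negative for mt-Tq (−3.95), mt-Tc (−6.00), Ptpmt1 (−0.96) and Snora30 (−2.68), with adjusted p of 0.660 to 0.812 over the 8 genes.

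**Figure D5:**
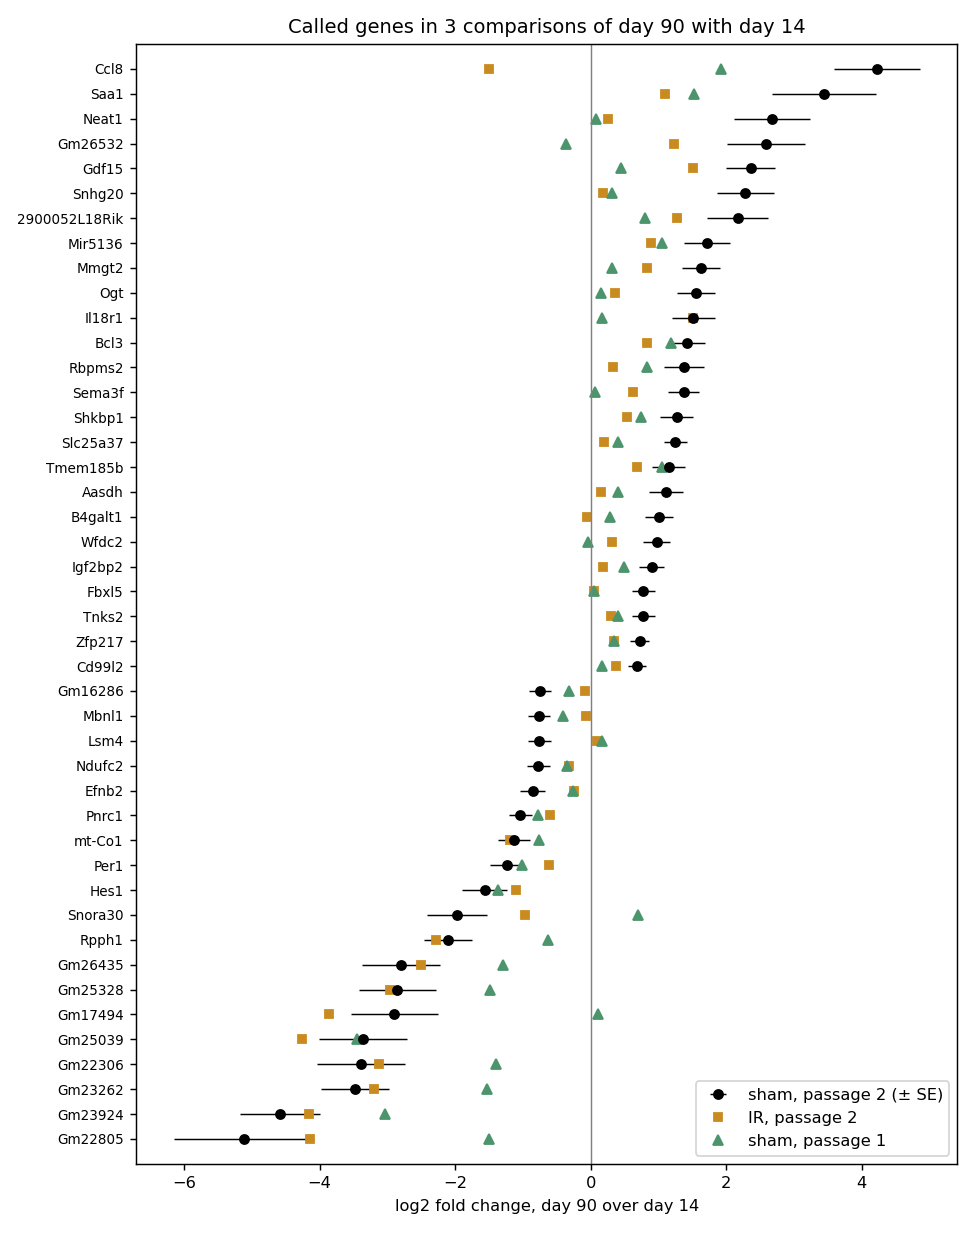
Log2 fold change of day 90 over day 14 for genes called in sham organoids of passage 2 (black, with SE), IR organoids of passage 2 (squares) and sham organoids of passage 1 (triangles). Ccl8 lies at 4.23 in sham and −1.50 in IR organoids of passage 2, while B4galt1 and Lsm4 also differ in sign between these 2 comparisons; the point of Gm22805 rests on 1 count at day 90.

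Between sham and IR organoids of passage 2, 1 gene differed in its day effect (0.00947% of those tested), against 543 at an unadjusted p under 0.05 (5.14%) and 2 by DESeq2. It was Ccl8, at 20.8 ± 8.001 CPM at day 90 and 1.10 ± 1.02 CPM at day 14 in sham organoids, and at 1.79 ± 0.253 CPM at day 90 and 5.52 ± 3.29 CPM at day 14 in IR organoids (SD, n = 3 each). The log2 fold change in sham exceeded that in IR by 5.73 (SE 0.90, edgeR adjusted p = 0.0229). Ccl8 passed the filter on low counts largely through the day 90 sham libraries of passage 2, which favours a positive difference. DESeq2 also called S100a8, a subunit of calprotectin (3.63), which edgeR put at 3.62 (adjusted p = 0.338). Below 0, and not called, were Zdhhc2 (−1.42, adjusted p = 0.348), Kdm3b (−1.03, adjusted p = 0.396), Fn1 (−2.84, adjusted p = 0.396) and Hid1 (−2.25, adjusted p = 0.412), and above 0 was Arhgap27 (1.69, adjusted p = 0.396). Slc25a37 averaged 69.6 ± 3.96 CPM at day 90 and 29.0 ± 3.41 CPM at day 14 in sham organoids, and 43.3 ± 5.54 CPM at day 90 and 37.7 ± 2.51 CPM at day 14 in IR organoids, a difference of the day effects of 1.05 (SE 0.23, adjusted p = 0.396) that did not pass.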

How the data were processed

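RNA of 24 organoid libraries was sequenced with the QuantSeq 3' kit, per the labels' protocols. It starts from the poly(A) end of a transcript, so a count does not depend on gene length. The deposited values are raw counts by Ensembl gene, unnormalized, in a separate file for every library. The build GRCm39 and bcl2fastq are named in the submitters' processing notes. No aligner, counter, annotation or strand setting is named in those notes or the labels, so overlapping genes and near-identical copies are uncertain. Each file had 47643 genes and 5 lines that name no gene, which were left out. Reads on no gene came to 12.5% to 14.9% at day 90 and 12.9% to 16.1% at day 14. Symbols, gene classes and transcript sequences came from GENCODE vM21 (47224 identifiers matched). Promoter windows came from RefSeq on GRCm38.p6 (23 of 45 called genes have an entry).

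The main test was edgeR's quasi-likelihood F test (edgeR 4.0.16, R 4.3.3), two-sided, with TMM factors and filterByExpr over 8 groups, which kept 10563 genes. All 24 libraries entered the fit, with a mean for each group. Adjusted p-values are Benjamini-Hochberg over all tested genes, called at 0.05. The SE is the log2 fold change over the square root of F. Libraries of 1 group differed by more than sampling noise, with a chi-square of 2.31 to 11.2 times its degrees of freedom, and each counts as a replicate. The script was tested on simulated counts. Alternatives were DESeq2 1.42.0, other scalings and filters, the compared groups alone, a replicate block, the Gm42418 share as a covariate, genes left out and each library left out. The 49 lists, the members and the tests were chosen with earlier results of these data known. Named genes were 12 fixed genes, up to 12 called genes per direction by size (mean of at least 5 CPM, no overlap, no predicted genes), called members of lists with at least 2, 4 per direction by p for each of 2 differences, and Gm42418 and sex-linked genes as checks. Some further genes of the lists and classes were chosen for mention after their values were seen. Some sequences and 1 called gene are not reported here.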

Additional observations from a re-analysis of the deposited data

Results flagged for a closer look

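Ccl8, the monocyte chemokine gene, differed between treatments in its day effect: its log2 fold change of day 90 over day 14 was higher in sham than in IR organoids of passage 2 by 5.73 in a direct test of the difference (edgeR adjusted p = 0.0229). It rested on 188 counts at day 90 and 6 at day 14 in sham organoids. All 3 sham libraries were higher at day 90 than at day 14. The gene passed the filter on low counts largely through those day 90 libraries, which favours a positive difference. The call of the difference was lost with the Gm42418 share as a covariate, with only the 4 compared groups fitted, and without any one of 7 of the 12 libraries.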

How the results depend on the processing

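The count of genes called for day 90 against day 14, 45 of 10563, was 114 with DESeq2, 305 with total counts as library sizes (287 higher, 18 lower), 427 with no filter, 28 with only the compared groups, 1 with the Gm42418 share as a covariate, and 26 (23 higher, 3 lower) with the small structured RNA classes left out, an alternative chosen after seeing the data. It was 52 with median-of-ratios factors, 53 with a stricter filter and 53 without the ribosomal RNA genes. With only the compared groups fitted, 17 of the 43 called genes with a value kept their call. Leaving out 1 library gave 3 to 47 calls, and the genes that kept their call numbered 28, 7 and 7 without day 90 replicates 1, 2 and 3, and 13, 6 and 3 without day 14 replicates 1, 2 and 3. The difference between passages, 0 genes, was 1 with DESeq2 and 91 with no filter. The difference between sham and IR, 1 gene, was 2 with DESeq2, 129 with no filter, 0 with the covariate, 0 with only the compared groups, and 0 to 10 with 1 library left out. The 10 came without day 90 IR replicate 1 and held Ccl8. The difference in the Gm42418 share, −11.2 percentage points, was −12.8 without mitochondrial ribosomal RNA in the denominator.

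None of the called genes changed sign under the 16 alternatives among those with a value, which were all 45 except 43 with DESeq2, 43 with only the compared groups and 36 with the small structured RNA classes left out. Each called gene had no overlap between the days, so leaving out 1 library could hardly turn its sign. Those unchanged signs are a description. The interferon list turned to a median of −0.99 with the covariate and −0.04 without day 14 replicate 1. Signs that did turn were those of genes not called. With 1 library left out, the log2 fold change ran from −1.01 to 0.77 for Id3, −2.18 to 1.61 for Krt19 and −0.39 to 1.03 for Bmp4, each lowest without day 90 replicate 1. It ran from −0.55 to 0.20 for Fn1 and from −0.21 to 0.018 for Krt8. Fn1 and Krt8 also turned with total counts (0.076 and 0.11) and with the covariate (0.44 and 0.19). With the replicate number as a block 47 genes were called and 40 of the 45 kept their call. Same-numbered libraries had correlations of deviations of 0.15, 0.05 and 0.04, so the numbers are not taken to pair them. The cause of these changes was not tested. Genes at a few CPM rest on few reads, so differences of low genes may not be detectable at this depth.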

Other observations

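Igfbp5, a secreted protein that binds insulin-like growth factors, had 7.79, 73.3 and 43.9 CPM at day 90, against 133, 280.5 and 319.5 CPM at day 14 (log2 fold change −2.55, edgeR adjusted p = 0.132), with no overlap and no call. Of 8 tested mitochondrial tRNA genes all 8 had a log2 fold change below 0 in sham organoids of passage 2, with a median of −1.23 and 0 called. In sham organoids of passage 1 the median of the same genes was 1.68. Of 22 annotated mitochondrial tRNA genes these 8 passed the filter on low counts. In passage 2 sham organoids mt-Tc averaged 3.61 CPM at day 90 and 13.0 CPM at day 14. In passage 1 sham organoids it averaged 7.44 CPM at day 90 and 0.365 CPM at day 14. A gene that passes through its higher groups favours such signs, so these counts and medians are a description. Of 22 tested fatty acid and lipid genes 0 were called and 5 were higher at an unadjusted p under 0.05 (7% of all tested genes were), among them Plin2, a lipid droplet protein (0.95), Acadl, an enzyme of fatty acid oxidation (0.90), and Dgat1, an enzyme of triglyceride synthesis (0.56). The median of the lipid list was 0.06 (−0.01 for all tested genes), with 14 genes above 0 and 8 below. In it 2 stood higher with no overlap (9.09%, against 11.1% of all tested genes) and 0 lower. The genes named in this section were chosen for mention after their values were seen.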
